A study of Mus musculus with 6 samples.

Results

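Tendon-like cells of the mouse fracture callus were defined here as cell barcodes with at least 3000 unique molecular identifiers (UMIs, counted transcripts) and at most 10% mitochondrial UMIs that carried at least 5 UMIs of Tnmd, Thbs4 and Kera together, with at least 2 of the 3 genes detected. The rule also asked for fewer than 3 UMIs of Ihh, less than 0.2% of UMIs from the cartilage genes Ucma, Cnmd, Matn3 and Scrg1, and at most 1 UMI each of Ptprc and Cdh5, which mark leukocytes and endothelial cells. It found 1558 cells among 46944 deposited barcodes, of which 30589 passed the UMI and mitochondrial limits and 17066 were stromal-gated (Ptprc and Cdh5 at most 1 UMI each). In the study, a stromal cluster with the markers Tnmd and Thbs4 carries the name myoblast, so muscle genes were measured beside tendon genes.

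The libraries were 10x 3′ single-cell RNA-seq of femoral fracture callus at 14 days post-fracture, with 3 control and 3 knockout libraries. Controls carry the label wt and are Piezo1 f/f mice in the study's methods. Knockout mice carry Col2CreERT with deletion of Piezo1, and the sample labels spell the allele Piezo3-/- where the series text has Piezo1-/-. Per the methods, the mice were 12-week-old males. Per the study's results and figure legends, knockout and control animals alike were given tamoxifen (75 mg/kg), once a day for 5 days, beginning on day 5 of healing. Cre activity followed the Col2a1 promoter, which marks chondrocytes, so recombination in tendon-like cells is not given by the design. The methods give 3 mice in each group, as many as there are libraries, while another count appears elsewhere in the study, and the labels do not tie a library to an animal, so p-values measure only the spread between these libraries.

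Tendon cells (tenocytes) build parallel collagen fibres that carry force from muscle to bone. The transcription factor scleraxis (Scx) marks their progenitors, the homeobox factor Mohawk (Mkx) acts in their differentiation, and tenomodulin (Tnmd), a membrane glycoprotein, marks more mature cells. Thrombospondin-4 (Thbs4) is a matrix protein of tendon and its junction with muscle, and fibromodulin (Fmod) and keratocan (Kera) are small leucine-rich proteoglycans, which bind collagen fibrils. Skeletal muscle precursors instead use Pax7, Myf5, Myod1 and Myog, the transcription factors of the myogenic programme.

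In GRCm38 with the GENCODE M21 annotation, Tnmd lies at chrX:133850980-133865577 on the plus strand, Thbs4 at chr13:92751590-92794818 on the minus strand and Kera at chr10:97606879-97613692 on the plus strand. Scx lies at chr15:76457452-76459458 and Fmod at chr1:134037254-134048277, both on the plus strand. The promoters of Tnmd and Thbs4, the pair detected together in most members, are shown from 250 bases before to 50 bases after the RefSeq start (GRCm38.p6). Capitals mark CANNTG, the E-box letters bound by basic helix-loop-helix factors, the family of Scx. The motif reads the same on both strands.

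Tnmd promoter, chrX:133850758-133851057, plus strand: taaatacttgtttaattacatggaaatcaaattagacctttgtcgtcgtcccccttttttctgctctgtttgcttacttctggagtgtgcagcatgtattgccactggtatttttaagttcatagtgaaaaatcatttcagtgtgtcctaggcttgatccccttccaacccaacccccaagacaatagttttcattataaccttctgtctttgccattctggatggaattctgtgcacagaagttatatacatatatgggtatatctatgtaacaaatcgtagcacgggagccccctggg

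Thbs4 promoter, chr13:92794769-92795068, minus strand: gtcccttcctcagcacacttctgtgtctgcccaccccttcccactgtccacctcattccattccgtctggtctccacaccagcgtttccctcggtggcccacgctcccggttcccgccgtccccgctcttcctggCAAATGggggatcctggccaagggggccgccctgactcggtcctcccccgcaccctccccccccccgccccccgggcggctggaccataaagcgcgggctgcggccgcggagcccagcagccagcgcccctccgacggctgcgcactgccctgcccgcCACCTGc

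The Tnmd window held 0 matches and the Thbs4 window held 2, CAAATG beginning 115 bases before the start and CACCTG beginning 43 bases after it. Of 32851 RefSeq promoter windows of this length, 23756 (72.3%) held at least 1 match. Among the 30 leading genes described below, 21 had a window in the table and 16 of these held a match (76.2%). A match of these letters is a description of the window and not a binding site.

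Both members of the defining pair were found in nearly every cell. Tnmd and Thbs4 without Kera were detected in 1049 members (67.3%) and all 3 genes in 475 (30.5%), while 30 members (1.93%) had Thbs4 and Kera and 4 (0.257%) had Tnmd and Kera. The members came from every library, with 260, 405 and 224 cells in control 1 to 3 and 239, 38 and 392 cells in knockout 1 to 3. Knockout 2 thus contributed 38 cells, the fewest of the 6 libraries, and its values rest on the smallest sums. No barcode was a member in more than 1 library, and library pairs shared between 4 and 36 barcodes of any kind. A doublet score marked 50 members (3.21%).

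Libraries differed in ways that bear on every comparison below. Median depth of a member was 33935, 12621 and 11866.5 UMIs in control 1 to 3 and 44837, 9577.5 and 14313 UMIs in knockout 1 to 3, so a limit of 5 UMIs was a lower relative level in control 1 and knockout 1. Total UMIs per library ranged from 57626530 to 103784364. The methods give male mice, but members of knockout 3 had Xist, the X-inactivation RNA of female cells, at 570 CPM (the depth-scaled UMI count) and 0 UMIs of the Y-linked Ddx3y, whereas Xist was 0 to 0.31 CPM and Ddx3y 57.5 to 113 CPM in the other 5 libraries. Knockout 2 had no cell in the cartilage gate and 1171 of the 1470 cells in a gate for the bone genes Ifitm5 and Bglap, so its remaining stroma differed in makeup from that of the other libraries. The gene lists of both replicates 3 also differed from those of the other libraries, and all values use the 52081 shared gene identifiers.

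**Figure D1:**
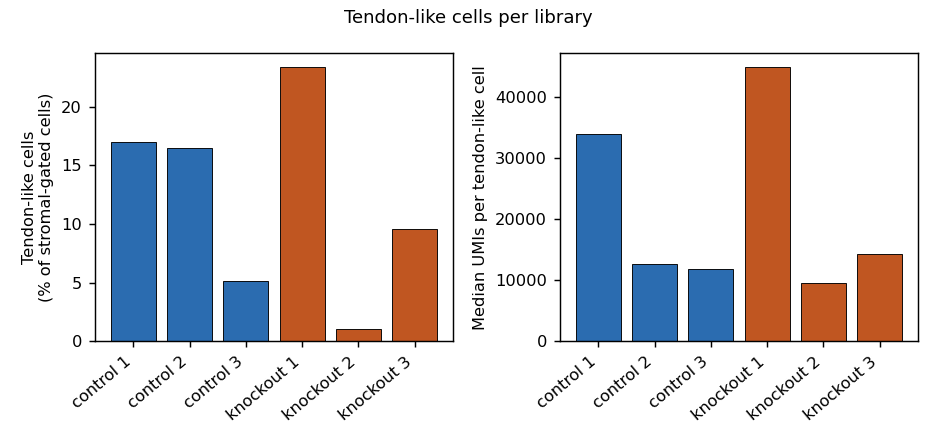
Tendon-like cells per library. Bars give the share of stromal-gated cells in % (left) and the median UMIs per tendon-like cell (right), with control libraries in one colour and knockout libraries in the other. The share was lowest in knockout 2 (1.05%) and highest in knockout 1 (23.4%), and the members of control 1 and knockout 1 were the deepest.

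The members were chosen by their UMIs of Tnmd, Thbs4 and Kera, with limits on Ihh, cartilage, leukocyte and endothelial genes, so these values are given as a description, with no test. Levels are CPM of UMIs summed over the members of a library. Each UMI is one 3′ tag of a transcript, so levels of different genes were set side by side without a length correction. Tnmd was at 1092, 1798 and 604 CPM in control 1 to 3 and at 667, 368 and 1713 CPM in knockout 1 to 3. Thbs4 was at 2084, 3442 and 695 CPM in controls and 1364, 925 and 1666 CPM in knockouts. Kera was at 161, 383 and 31.4 CPM in controls and 27.6, 6.90 and 139 CPM in knockouts. Control 2 was the highest library for all 3 genes, and the groups overlapped for each. The same genes averaged 32.7, 106 and 0.829 CPM over the 6 libraries in the other stromal cells. These were 8941 stromal-gated cells outside the members that met the same Ihh and cartilage limits. They had at least 0.5% of UMIs from Col1a1, Col1a2 and Col3a1. Cells of the bone gate and of the stromal gates used below (Penk and Aspn, Pi16 and Clec3b, mural) were not taken out of them.

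Scx and Fmod, which the rule did not name, were also high. Scx was at 162, 407 and 256 CPM in controls and 55.4, 127 and 190 CPM in knockouts, against a mean of 48.3 CPM in the other stromal cells. Fmod was at 1793, 2756 and 1383 CPM in controls and 1465, 948 and 1999 CPM in knockouts, against a mean of 616 CPM. Thbs4 was not limited to the members: in a stroma gated on the fibroblast genes Pi16 and Clec3b (87 cells) it averaged 1076 CPM over the 4 libraries with at least 10 such cells, with Tnmd at 9.64 CPM and Scx at 4.88 CPM. Scx and Fmod were above the other stromal cells of the same library in 6 of 6 libraries, and control 2 was again the highest. After each cell was thinned to 3000 UMIs, Scx was detected in a median of 29.5% of members over libraries (range 14.6 to 53.3%), against 7.67% of other stromal cells and 1.32% of endothelial cells. Fmod was detected in 82.6% of members, 55.7% of other stromal cells, 75.3% of a stroma gated on Penk and Aspn, 90.2% of cartilage-gated cells and 18.3% of endothelial cells. The endothelial share is given as a background level, and its source was not tested.

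Comp, the cartilage oligomeric matrix protein, separated the cells less. It was detected in 92.1% of members, 70.4% of other stromal cells and 49.7% of endothelial cells after thinning, and its level of 2234 ± 928 CPM (SD, n = 6) was above that of other stromal cells in 3 of 6 libraries. The rule genes were also counted in other cell types. Between 0 and 3.81% of endothelial cells of a library had 5 UMIs of at least 2 of the 3 genes, as had between 0.0869 and 5.11% of immune cells. Whether these UMIs came from free RNA, doublets or the cells themselves was not tested. In control 1, 34 of 260 members had a share of rule-gene UMIs no higher than the 95th percentile of its endothelial cells, as had 20 of 239 in knockout 1, 8 of 392 in knockout 3 and 0 in the other 3 libraries.

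Cells near the threshold were pooled over libraries of unlike depth. The 78 members with exactly 5 UMIs of the rule genes had Scx at 74.8 CPM and Fmod at 1099 CPM, and the 81 cells with 4 UMIs that met the other limits had Scx at 44.5 CPM and Fmod at 975 CPM. Mkx and Comp went the other way, at 11.0 and 1867 CPM in the 78 members and 15.2 and 2141 CPM in the 81 cells. The 1241 members with more than 10 UMIs had Scx at 204 CPM and Fmod at 1985 CPM. Cells with no UMI of the 3 genes had Fmod at 322 CPM. The order of the pooled Scx and Fmod levels did not hold in every library. In control 3 Scx was at 370 CPM in 7 cells with 4 UMIs, 288 CPM in 17 members with 5 UMIs and 260 CPM in 148 members with more than 10.

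**Figure D2:**
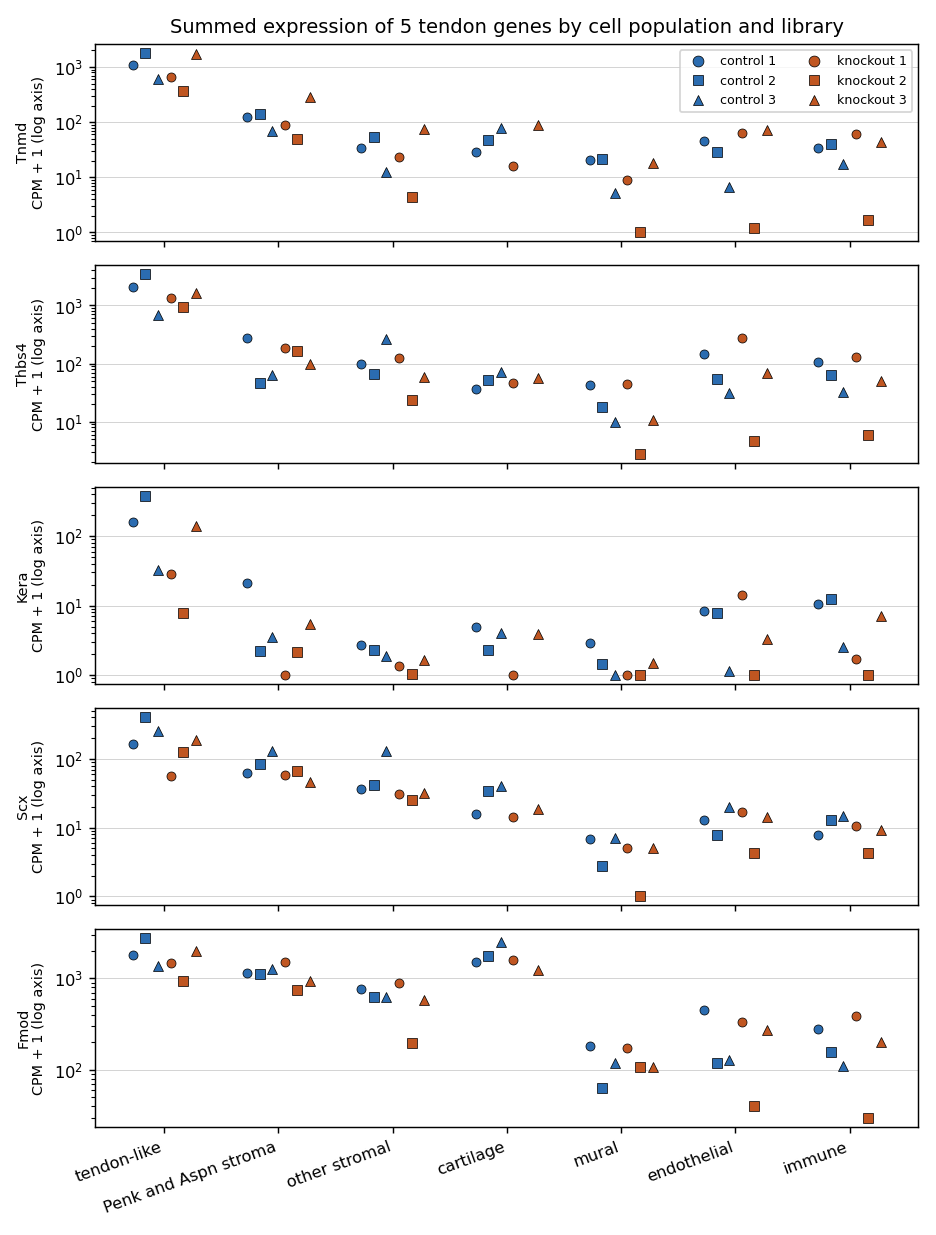
Summed expression of Tnmd, Thbs4, Kera, Scx and Fmod (CPM + 1, log axes) in 7 gated populations, with 1 point per library coloured by group. Tendon-like cells hold the highest mean Tnmd (1040 CPM), Thbs4 (1696 CPM), Kera (125 CPM) and Scx (199 CPM) of the populations drawn. Fmod is spread more widely across the stroma and cartilage.

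Other genes were set against the other stromal cells in the same way. Of 3267 genes with a mean of at least 50 CPM in members, 523 were higher and 300 lower than in other stromal cells of the same library in 6 of 6 libraries. Values are log2 ratios of CPM + 10, as mean ± SD over 6 libraries, and are descriptive because every gene was measured in the cells that were chosen. Tnmd led at 4.66 ± 0.22 and Thbs4 followed at 4.0 ± 1.49. Angptl7, a secreted angiopoietin-like protein, was at 3.09 ± 1.91, and Cilp2, a relative of the cartilage intermediate layer protein, at 2.96 ± 0.76. Kera (2.89 ± 1.63), Abi3bp (2.80 ± 0.74), the microfibril protein Mfap4 (2.71 ± 0.97), Angptl1 (2.49 ± 0.90), the matricellular protein Ccn3 (2.48 ± 0.76) and Cilp (2.21 ± 1.17) completed the first 10. For most of the 30 leading genes the highest ratio was that of knockout 2, as for Igf1, whose ratio ranged from 1.09 in control 2 to 3.84 in knockout 2.

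The remaining 20 leading genes included further matrix and growth factor genes. Igf1, a growth factor for connective tissue, was at 1.92 ± 1.03, the proteoglycan osteoglycin (Ogn) at 1.84 ± 0.68, the opioid precursor Penk at 1.82 ± 1.57 and Scx at 1.82 ± 0.87. The proteoglycan asporin (Aspn) was at 1.52 ± 0.97, fibrillin-2 (Fbn2) at 1.57 ± 0.72, the WNT antagonist Sfrp2 at 1.59 ± 1.37, the IGF-binding protein Igfbp6 at 1.51 ± 1.05 and collagen XIV (Col14a1) at 1.41 ± 1.17. Cpxm2, Chodl, Itgbl1, Ssc5d, Scube2, Fndc1, Crispld2, C1qtnf3, Pamr1, Fmod and Megf6 made up the rest, between 1.41 and 2.18. Each of these genes was higher in members in 6 of 6 libraries, which the choice of leading genes required. Cells gated on Penk and Aspn were not taken out of the other stromal cells, so the ratios of Penk and Aspn are to a group that holds such cells.

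**Figure D3:**
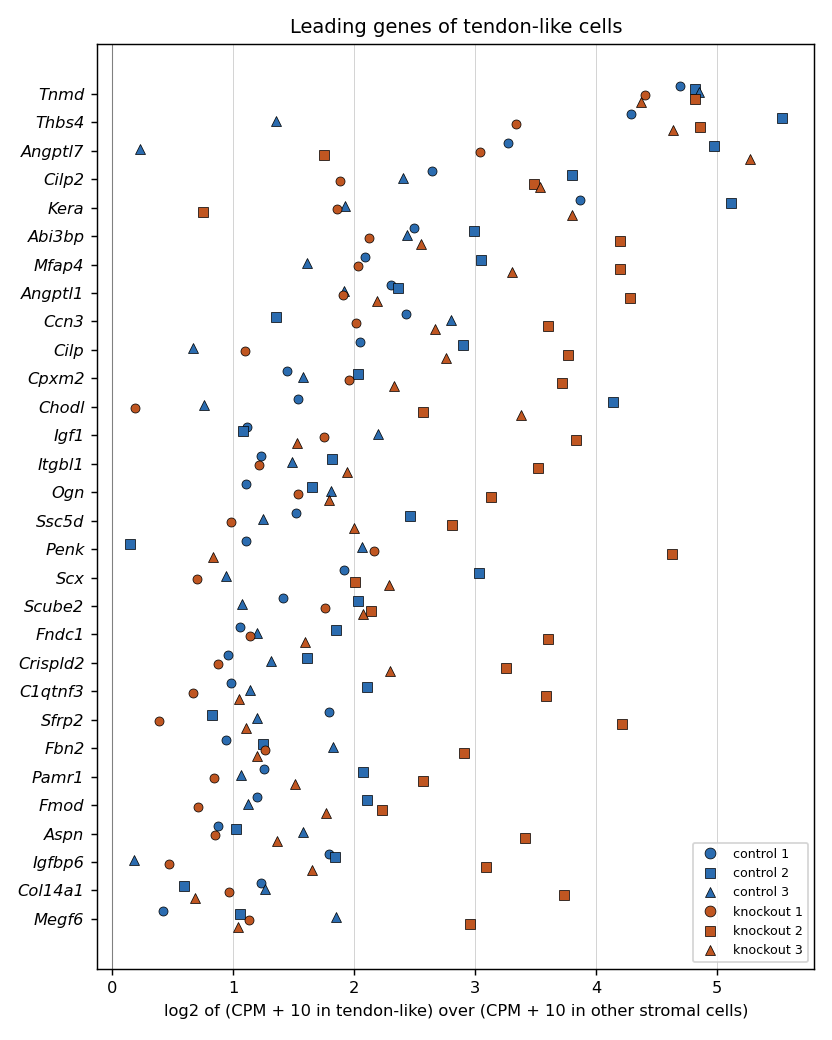
Leading 30 genes of tendon-like cells. The x axis gives the log2 ratio of CPM + 10 in tendon-like cells to that in other stromal cells of the same library, with 1 point per library. All points lie above 0, and the spread between libraries is narrowest for Tnmd (SD 0.22) and wide for Angptl7 (SD 1.91).

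Genes of pericytes, bone and hypertrophic cartilage were among those lower in 6 of 6 libraries. The other stromal cells hold bone-gated cells and mural-gated cells (at least 5 UMIs of Rgs5 and Myh11 together). They had Rgs5 at a mean of 829 CPM and Bglap at 744 CPM, so these ratios rest in part on that makeup. Rgs5, a pericyte gene, was at -3.31 ± 0.91 on the same log2 scale, and the osteocalcin gene Bglap at -2.84 ± 1.89. The bone sialoprotein gene Ibsp (-2.09 ± 1.06), the osteocyte gene Dmp1 (-2.04 ± 0.94) and Col10a1, the collagen of hypertrophic chondrocytes (-1.73 ± 1.06), were lower too. Of 14 osteoblast genes tested, 12 were lower and 0 higher in all 6 libraries, with a median ratio of -1.45, beside -0.00942 over all 13288 genes tested. Of 12 hypertrophic chondrocyte genes, 10 were lower and 0 higher, with a median of -1.28, and of 18 chondrocyte genes, 7 were lower and 1 (Matn4) was higher, with a median of -0.20. Over all 13288 genes, 1143 were higher and 1338 lower in 6 of 6 libraries.

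Of the 19 tendon marker genes that the rule did not use, 13 were higher and 1 (Tnc, tenascin C) was lower in all 6 libraries, with a median ratio of 0.97. Thbs2, a thrombospondin, was at 1.16, Prelp, a collagen-binding proteoglycan, at 1.39, the microfibril protein Mfap5 at 1.21 and the pentraxin Ptx4 at 1.81. The summed level of the list with the rule genes was 15431, 20280 and 10107 CPM in control 1 to 3 and 11692, 7693 and 16450 CPM in knockout 1 to 3, and was above that of other stromal cells in each library. It was below the sum in cartilage-gated cells, which averaged 30541 CPM over 5 libraries, and the Penk and Aspn stroma averaged 11103 CPM and exceeded the members in control 3 (10411 CPM) and knockout 1 (14658 CPM). Of 15 transcription factors linked to tendon, 7 were higher and 0 lower, with a median of 0.24. Mkx (0.97), Eya2 (1.02) and the forkhead factor Foxp1 (0.54) were among the 7, while the early growth response factor Egr1, an activator of tendon collagen genes, averaged -0.06 and was higher in 2 of 6 libraries.

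Among collagens, Col1a1 (27947 ± 7340 CPM) and Col1a2 (23370 ± 5189 CPM), the chains of type I collagen, had mean ratios of -0.12 and -0.14 and were higher in 3 of 6 libraries each. Col3a1, the type III chain, was at 14304 ± 5899 CPM and was higher in 6 of 6 libraries, by 0.88. Of 17 fibrillar and associated collagens, 6 were higher and 1 lower in all 6 libraries, with a median ratio of 0.05, beside 8.60% higher and 10.1% lower over all genes tested. Of 14 small leucine-rich proteoglycans, 8 were higher and 0 lower, with a median of 0.65, led in level by biglycan (Bgn, 4159 ± 860 CPM), decorin (Dcn, 3649 ± 784 CPM) and Aspn (2641 ± 584 CPM). Of 28 thrombospondins and other matricellular genes, 15 were higher and 2 lower. Kera, a small leucine-rich proteoglycan, and Thbs4, a thrombospondin, entered the rule. Any count of them as higher follows from the choice of cells. The 2 lower genes were Tnc (-0.45) and osteopontin (Spp1, -1.67), and periostin (Postn) was higher by 0.82.

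Signalling genes were counted in the same way. Of 26 genes of the TGF-beta pathway, 10 were higher and 4 lower in all 6 libraries, and the 10 included the receptor Tgfbr2 (0.73), the ligand Tgfb3 (0.70), the activin subunit Inhba (0.59) and the latent TGF-beta binding proteins Ltbp1, Ltbp2 and Ltbp3 (0.74, 0.79 and 0.79). Of 28 WNT genes, 8 were higher and 7 lower, with the receptors Fzd1, Fzd2 and Fzd8 among the higher (0.75, 0.57 and 0.63) and the antagonist Wif1 among the lower (-1.04). Of 28 BMP and GDF genes, 4 were higher and 7 lower, of 16 FGF genes 0 were higher and 1 lower, and of 12 hedgehog genes 2 were higher (the co-receptors Boc and Cdon) and 1 lower. Myostatin (Mstn), a TGF-beta family ligand best known from muscle, was at 74.9, 206 and 0.621 CPM in control 1 to 3 and at 4.54, 0 and 10.2 CPM in knockout 1 to 3. It was thus carried by control 1 and control 2, and averaged 0.201 CPM in other stromal cells.

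Of 26 genes linked to mechanosensing, 7 were higher and 3 lower in all 6 libraries, with a median ratio of 0.09. Piezo2, the mechanically gated channel of the same family as Piezo1, was at 154, 113 and 69.9 CPM in control 1 to 3 and at 96.6, 64.4 and 36.9 CPM in knockout 1 to 3, and was above other stromal cells in each library. After thinning it was detected in a median of 20.1% of members, 12.3% of other stromal cells, 18.9% of the Penk and Aspn stroma, 21.9% of mural cells, 18.5% of endothelial cells and 2.03% of leukocytes. Piezo1 averaged 47.2 CPM in members and 50.9 CPM in other stromal cells. The polycystins Pkd1 and Pkd2, which form a membrane complex linked to flow sensing, were higher by 0.69 and 0.83, and the collagen receptor subunit Itga11 by 0.89.

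The members were also set against the stroma gated on Penk and Aspn (671 cells). Tnmd averaged 125 CPM there, and the log2 ratio of members to these cells was 2.94 ± 0.37 for Tnmd, 3.55 ± 1.28 for Thbs4, 2.57 ± 1.54 for Angptl7, 2.38 ± 1.51 for Chodl and 1.85 ± 0.87 for Cilp, each higher in 6 of 6 libraries. Mkx was higher in 6 of 6 libraries by 0.81 ± 0.37, Scx in 5 of 6 by 1.18 ± 0.79 and Fmod in 5 of 6 by 0.57 ± 0.53. Other leading genes were detected nearly as often in this stroma. After thinning, Ogn was detected in a median of 81.8% of members and 77.3% of this stroma, Igf1 in 72.6 and 61.0%, and Abi3bp in 73.3 and 63.4%. In control 2 Igf1 was detected in 81.5% of members and 86.6% of this stroma. The rule capped cartilage genes and Ihh in the members, so lower cartilage genes follow in part from the choice of cells. The chondrocyte list summed to a mean of 5020 CPM in members and 13375 CPM in the Penk and Aspn stroma, and among single genes lower in 6 of 6 libraries were Col10a1 at -1.93 ± 1.04, Col9a2 at -1.48 ± 0.48, the link protein Hapln1 at -1.38 ± 1.15 and the secreted WNT antagonist Frzb at -1.49 ± 0.99. Across 52 points (each a population in a library, other stromal cells left out), the genes whose CPM followed Tnmd most closely by Spearman's rho were Cilp2 (0.933), Fmod (0.80), Kera (0.799), Scube2 (0.780) and 1500015O10Rik (0.780). Points of a library share its depth and free RNA, the members among the points were chosen on Tnmd and Kera, and the ranking is descriptive.

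Kera divided the members. It was detected in 96, 213 and 64 members of control 1 to 3 and in 50, 2 and 84 members of knockout 1 to 3. In the 5 libraries with at least 10 such cells, Kera-positive members had more Angptl7 than the other members of the library (log2 ratio 2.26 ± 1.05), more Cilp2 (1.63 ± 0.24), more Thbs4 (1.38), more Tnmd (1.19 ± 0.28), more Mkx (1.00) and more Fmod (0.92 ± 0.30), in 5 of 5 libraries each. Scx was higher in 4 of 5 libraries, by a mean of 0.94. Lower in 5 of 5 libraries were the S-phase histone genes Hist1h1b (-1.70) and Hist1h2ap (-1.21), the bone alkaline phosphatase gene Alpl (-1.14), the hedgehog receptor Ptch1 (-0.96), the parathyroid hormone receptor Pth1r (-0.71) and Wnt5a (-0.66). Median depth of Kera-positive and other members was 35393 and 33108.5 UMIs in control 1, 12290 and 13623.5 in control 2, 11349.5 and 12220 in control 3, 49325 and 43310 in knockout 1, and 11520.5 and 14891.5 in knockout 3. Since Kera, Tnmd and Thbs4 all entered the rule, these differences have no test.

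Muscle transcription factors were nearly absent from the members. UMIs of Pax7, Myf5, Myod1 or Myog were present in 13 of 1558 members (0.834%), with 113 UMIs in all, and 105 of these UMIs lay in 7 cells of control 1. Pax7 was at 5.33 CPM in members of control 1, 0.0927 CPM in knockout 1, 0.323 CPM in knockout 3 and 0 in the other 3 libraries. Cells with at least 3 UMIs of the 4 factors did occur in the callus, 62 in all, but 5 of them were members, 4 in control 1 and 1 in knockout 3, and none of the 5 was marked as a doublet. The cells of this kind outside the members, 56 of them stromal-gated, had the rule genes at 0 to 35.7 CPM summed in each library.

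Genes of muscle fibres were low as well, and those of smooth muscle lay far below mural cells. Acta1, skeletal actin, had 40 UMIs in 34 members, Ckm, muscle creatine kinase, had 6 UMIs in 6 members, and Myh3, embryonic myosin, had 1 UMI in 1 member. The troponin gene Tnnt3 had 156 UMIs in 130 members (8.34%, and 16.2% in control 1), titin (Ttn) had 106 UMIs, of which 83 lay in control 1, and the myosin light chain gene Mylpf had 68 UMIs in 59 members. Of 24 myofibre genes, 5 were abundant enough to test and none of these was higher or lower than in other stromal cells in all 6 libraries. Their summed level was 65.7, 55.3 and 27.6 CPM in control 1 to 3 and 25.5, 11.5 and 36.3 CPM in knockout 1 to 3, beside 22.9 to 49.8 CPM in endothelial cells, and the most abundant was Eno3, which other tissues also express. The intermediate filament gene Des was at 26.6, 5.73 and 8.69 CPM in controls and 6.12, 2.30 and 4.52 CPM in knockouts, below the other stromal cells of each library. Of 13 smooth muscle and pericyte genes, 0 were higher and 7 lower in all 6 libraries, with a median ratio of -1.05. Their summed level averaged 1132 CPM in members, 2718 CPM in other stromal cells, 21416 CPM in mural cells and 951 CPM in endothelial cells. Mural-gated cells were not taken out of the other stromal cells, so the lower Des and smooth muscle genes rest in part on that makeup. After thinning, Acta2 was detected in a median of 19.0% of members, 22.3% of other stromal cells, 83.5% of mural cells and 9.94% of endothelial cells.

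One gene of the myoblast list stood out, and it is not specific to muscle. Chodl, a membrane lectin, was at 57.2, 270 and 7.45 CPM in control 1 to 3 and at 5.47, 55.2 and 117 CPM in knockout 1 to 3, against a mean of 4.36 CPM in other stromal cells. It was detected in 297 members, and its level in knockout 2 rests on 24 UMIs in 1 cell. It made up most of the summed list in control 1, control 2, knockout 2 and knockout 3. The list summed to 109, 281 and 19.9 CPM in controls and 18.8, 62.1 and 127 CPM in knockouts. Of 16 genes of the list, 4 were tested, of which Chodl and Musk were higher and Des and Megf10 lower in all 6 libraries. Myf6 and Pax3 had no UMI in any member.

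**Figure D4:**
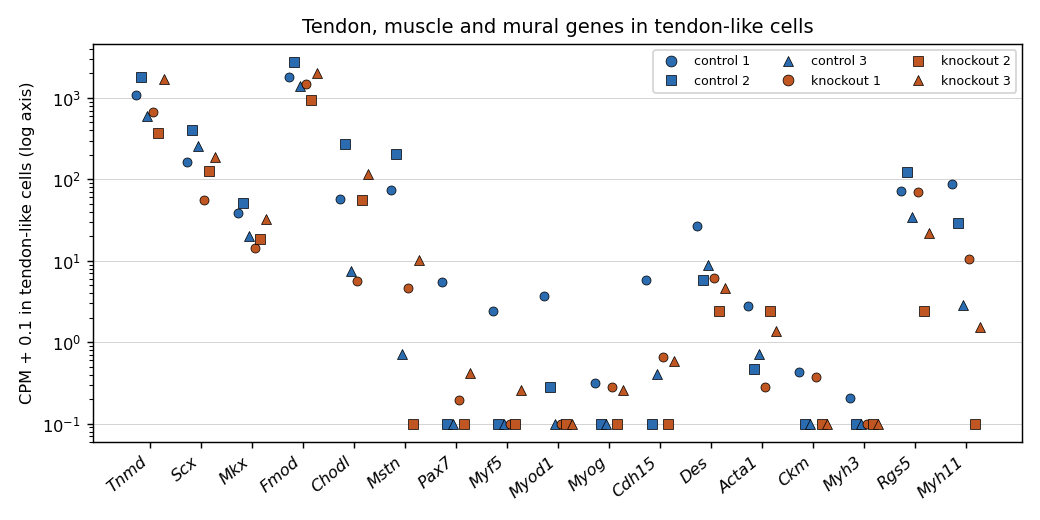
Tendon, muscle and mural genes in tendon-like cells (CPM + 0.1, log axis), with 1 point per library coloured by group. Tnmd and Fmod lie between 368 and 2756 CPM, whereas Pax7, Myf5, Myod1, Myog, Ckm and Myh3 lie at or near the bottom of the axis in most libraries. Control 1 is the highest library for Pax7 (5.33 CPM) and Des (26.6 CPM).

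Inflammatory genes of the members varied between libraries of both groups. Saa3, an acute-phase serum amyloid gene, was at 9.80, 2.59 and 4571 CPM in control 1 to 3 and at 3412, 0 and 0.968 CPM in knockout 1 to 3. The neutrophil chemokine Cxcl5 was at 19.3, 5.55 and 365 CPM in controls and 913, 11.5 and 1.94 CPM in knockouts. Control 3 and knockout 1 were the high libraries for both genes. The summed inflammatory fibroblast list followed, at 8153 CPM in control 3 and 7964 CPM in knockout 1 against 373 to 1426 CPM in the other 4 libraries. Endothelial cells of control 3 and knockout 1 also had the highest Saa3 of that population, at 1289 and 433 CPM, and the part of free RNA in the members' level was not tested.

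Angptl7 and Cilp also varied between libraries, in another order. Angptl7 was at 119, 506 and 2.48 CPM in control 1 to 3 and at 83.8, 25.3 and 582 CPM in knockout 1 to 3. Cilp was at 577, 619 and 31.7 CPM in controls and 193, 361 and 414 CPM in knockouts. Control 3 was the lowest library for both. In the same library 437 cells reached 5 UMIs with only 1 of the rule genes and were left out by the rule.

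The study compared callus with and without Piezo1 in Col2a1-expressing cells, and the share of tendon-like cells was set against this contrast first. The share among stromal-gated cells was 17.0, 16.4 and 5.13% in control 1 to 3 and 23.4, 1.05 and 9.61% in knockout 1 to 3. The lowest and the highest value both lay among the knockouts, so the groups overlapped. With the rule applied to cells thinned to 3000 UMIs the shares were 7.25, 11.2 and 1.74% in controls and 8.81, 0.360 and 5.20% in knockouts, so that the highest then lay in control 2. The unthinned mean was 12.9 ± 6.70% in controls and 11.4 ± 11.3% in knockouts (SD, n = 3 each), a difference of -1.50 percentage points (two-sided exact permutation test over libraries, p = 0.9, where 0.1 is the smallest p that 3 against 3 libraries can give). Over all passing barcodes the difference was -0.0859 percentage points, and knockout 2 was again the lowest library (0.510%). Knockout 2 was rich in bone cells, and the part of this in its low share was not tested. Without knockout 2 the difference in share of stromal-gated cells was 3.64 percentage points.

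Proliferation genes were compared in the same way. The share of members with a UMI of Mki67 or Top2a after thinning was 5.77, 5.43 and 17.0% in control 1 to 3 and 11.7, 15.8 and 4.85% in knockout 1 to 3, with the highest value in control 3 and the lowest in knockout 3. The means were 9.39 ± 6.56% and 10.8 ± 5.53% (SD, n = 3 each), a difference of 1.40 percentage points (two-sided exact permutation test, p = 1). Without thinning the means were 21.4 ± 7.87% and 29.0 ± 11.4% (exact permutation test, p = 0.4). Free RNA can give a UMI of either gene, and its part was not tested.

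No gene differed between groups in tendon-like cells at an adjusted p under 0.05. The sums of UMIs per library went into the quasi-likelihood test of edgeR, and 0 of 13288 genes tested (0%) passed after Benjamini-Hochberg adjustment. At an unadjusted p under 0.05 there were 237 genes (1.78%), 118 higher and 119 lower in knockouts, and DESeq2 gave 0 genes at an adjusted p under 0.05 and 240 at an unadjusted p under 0.05. Knockout libraries lay wholly above controls for 327 genes (2.46%) and wholly below for 384 genes (2.89%). The first principal component held 49.3% of the variance and set knockout 2 apart from the other 5 libraries. Left out in turn, no library but control 1 changed the count of 0, and without control 1 the haemoglobin genes Hbb-bt, Hba-a1 and Hba-a2 were lower in knockouts (edgeR, adjusted p under 0.05).

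Piezo1 itself was at 50.3, 50.7 and 46.3 CPM in control 1 to 3 and at 72.8, 29.9 and 33.5 CPM in knockout 1 to 3, so that knockout 1 lay above and the other knockouts below all controls. The log2 fold change was -0.07 ± 0.33 (SE, edgeR, unadjusted p = 0.847, adjusted p = 0.9998). A 3′ tag outside the deleted part of the gene is counted with or without recombination, and the deleted part is not given in the sources used here, so Piezo1 does not check the labels. Apoe, the apolipoprotein that the study followed in hypertrophic chondrocytes, was at 167, 257 and 178 CPM in controls and 156, 460 and 395 CPM in knockouts. Its log2 fold change was 0.72 ± 0.42 (SE, edgeR, unadjusted p = 0.120), and the groups overlapped. Lars2 was at 733, 370 and 350 CPM in controls and 824, 276 and 155 CPM in knockouts, with a log2 fold change of -0.22 ± 0.55 (SE).

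Tnmd, Thbs4 and Kera entered the rule in every library, so their log2 fold changes of -0.31 ± 0.62, -0.65 ± 0.55 and -1.58 ± 0.97 (SE, edgeR) are given as a description, with no test. Scx, at -1.15 ± 0.52 (SE, edgeR, unadjusted p = 0.0521), and Fmod, at -0.42 ± 0.43 (unadjusted p = 0.355), did not pass. Of the 19 tendon markers outside the rule, 0 had an unadjusted p under 0.05 and 0 had groups that did not overlap, with a median log2 fold change of -0.33 beside -0.00242 over all genes tested. Leaving out 1 library moved Kera between -3.28 (without knockout 3) and -0.52, Scx between -1.76 and -0.73, Thbs4 between -1.06 and -0.016, Fmod between -0.79 and -0.070 and Tnmd between -1.24 and 0.195, with the upper end of each in the fit without control 2. Piezo2 was at -0.78 ± 0.38 (SE, unadjusted p = 0.0668).

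Since no gene passed, the 5 genes of lowest unadjusted p in each direction among those with an unadjusted p under 0.05 and groups that did not overlap are given as a description. Slc40a1, the iron exporter ferroportin, was at 146, 142 and 135 CPM in control 1 to 3 and at 65.3, 36.8 and 57.9 CPM in knockout 1 to 3 (log2 fold change -1.35 ± 0.28, SE, unadjusted p = 0.000748). Every knockout lay below every control. In the Penk and Aspn stroma Slc40a1 was at 259, 187 and 236 CPM in controls and 128, 72.2 and 79.7 CPM in knockouts, again without overlap, whereas in endothelial cells, with a mean of 26.3 CPM, the groups overlapped. The other 4 lower genes were Plxdc1 (-2.02), the imprinted noncoding RNA Mirg (-1.30), AC135016.1 (-1.82) and the immunoglobulin gene Igha (-4.41). Igha, a plasma cell transcript, was at 238, 338 and 109 CPM in immune cells of control 1 to 3 and at 0.687, 82.5 and 0.421 CPM in those of knockout 1 to 3, and its part as free RNA in the members' 0.0927 to 13.9 CPM was not tested.

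The 5 higher genes were Pf4 (log2 fold change 1.70 ± 0.36, SE, unadjusted p = 0.000988), C1qc (1.54), C1qb (1.37), Isyna1, an enzyme of inositol synthesis (1.43), and the calcitonin gene Calca (1.94). Pf4 and the complement genes C1qb and C1qc are macrophage transcripts. C1qb was at 13.1, 10.5 and 12.4 CPM in members of control 1 to 3 and at 19.4, 46.0 and 33.5 CPM in those of knockout 1 to 3, and at 13.3, 9.39 and 13.3 CPM and 16.3, 71.2 and 30.5 CPM in endothelial cells of the same libraries. In immune cells it averaged 1020 CPM. Of 9 macrophage genes tested, 5 had an unadjusted p under 0.05, all higher, with a median log2 fold change of 1.14. The summed list was 290, 402 and 380 CPM in members of controls and 407, 902 and 687 CPM in those of knockouts, with Apoe its most abundant gene, and 345, 427 and 413 CPM and 437, 907 and 491 CPM in endothelial cells. The part of free RNA in this difference was not tested.

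**Figure D5:**
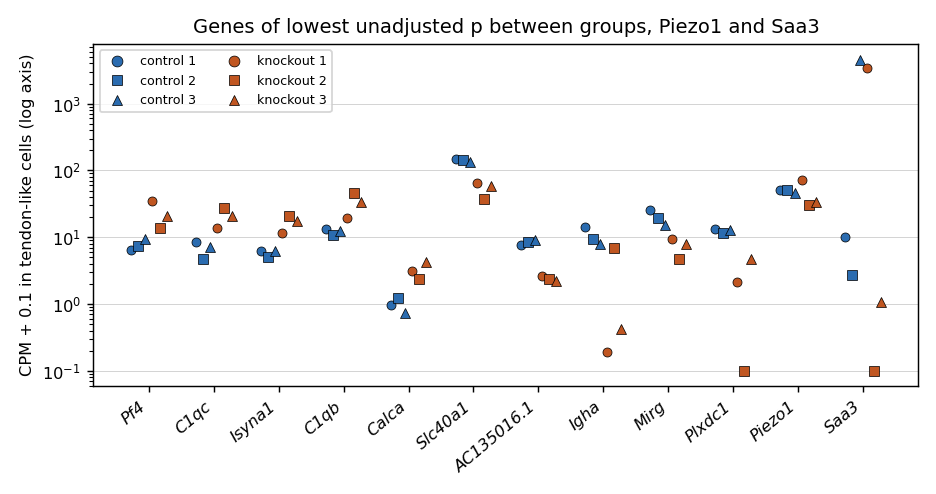
The 10 genes of lowest unadjusted p between groups whose libraries do not overlap, with Piezo1 and Saa3, in tendon-like cells (CPM + 0.1, log axis), 1 point per library coloured by group. Slc40a1 lies at 135 to 146 CPM in controls and 36.8 to 65.3 CPM in knockouts, and Saa3 is high in control 3 (4571 CPM) and knockout 1 (3412 CPM) only.

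Other gene lists are given by their counts and sums, and 1.78% of all genes had an unadjusted p under 0.05. Of 14 osteoblast genes, 4 had an unadjusted p under 0.05, all higher in knockouts, with a median log2 fold change of 0.99. The summed list was 3766, 664 and 2906 CPM in control 1 to 3 and 3533, 8811 and 12088 CPM in knockout 1 to 3, with Ibsp its most abundant gene, and knockout 2 and knockout 3 were the high libraries. In immune cells the osteoblast list summed to 2043, 617 and 1425 CPM in controls and 4020, 3290 and 3195 CPM in knockouts, without overlap, so the same direction stood in leukocytes, and the part of free RNA was not tested. Of 12 hypertrophic chondrocyte genes, 3 had an unadjusted p under 0.05, all higher, with a median of 0.90. Their summed level was 7241, 3972 and 7494 CPM in controls and 9034, 11211 and 19607 CPM in knockouts, without overlap, with Ibsp again the most abundant gene. In endothelial cells that list summed to 11420, 1780 and 4065 CPM in controls and 7586, 5380 and 9407 CPM in knockouts, with overlap. In the neutrophil gate it summed to 3135, 1651 and 2772 CPM in controls and 4540, 4056 and 9571 CPM in knockouts, without overlap. Of 5 erythroid genes, 4 had an unadjusted p under 0.05, all lower, with a median of -5.99, and the summed list was 2.61, 904 and 1042 CPM in controls and 5.56, 59.8 and 11.6 CPM in knockouts. Control 2 and control 3 carried the erythroid signal, and control 1 was as low as the knockouts. Endothelial cells of the same libraries had 12, 129 and 1677 CPM of that list in controls and 16.7, 54.7 and 20.1 CPM in knockouts. In control 2 it was at 22.1 CPM in other stromal cells and 17.3 CPM in the Penk and Aspn stroma. Mural cells of control 2 had 20.1 CPM and immune cells 179 CPM, so its members lay above each of these populations. Of 13 smooth muscle and pericyte genes, 3 had an unadjusted p under 0.05, all lower, with a median of -0.80. Their summed level was 1070, 1278 and 2084 CPM in controls and 769, 911 and 678 CPM in knockouts, so that all knockouts lay below all controls, with Acta2 the most abundant gene. The sums did not overlap, in the same direction, in other stromal cells (2383, 6273 and 3812 CPM in controls and 1580, 619 and 1640 CPM in knockouts) and in immune cells (394, 675 and 433 CPM in controls and 336, 139 and 240 CPM in knockouts). Mural-gated cells were not taken out of the other stromal cells. The mural gate held 105, 517 and 602 cells in controls and 25, 53 and 129 in knockouts, and their part in these sums was not tested. The sums overlapped in mural, endothelial and cartilage-gated cells and in the neutrophil gate. In the Penk and Aspn stroma they also overlapped, at 832, 386 and 1210 CPM in controls and 843, 1126 and 600 CPM in knockouts. None of these lists held a gene at an adjusted p under 0.05 in edgeR's test.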

How the data were processed

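Fracture callus cells of 3 control and 3 knockout mouse libraries were profiled with 10x 3′ single-cell RNA-seq. The deposited matrices hold raw UMI counts per gene and barcode, which the authors made with Cell Ranger against GRCm38 (version 6.1.1 for replicate 1 of each group and 6.1.2 for the others, per the file headers). The authors' own analysis used Seurat 3.1.4, and 0 of its columns entered here. Depth is given per library in the results.

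The members and the 38 gene lists were chosen with earlier results of these data known. Gates, levels (CPM of UMIs summed per library over 52081 shared genes) and doublet scores (scanpy 1.11.5) were computed in Python 3.11.15, and RefSeq promoters were matched by symbol. Tendon-like cells were set against other populations without a test, since the rule used the same cells. Groups were compared with edgeR 4.0.16 (quasi-likelihood test, TMM, filterByExpr, Benjamini-Hochberg) on summed counts and with exact permutation tests of shares over libraries. Cells are not replicates. DESeq2 1.42.0, other gates, no filter, leaving out libraries and the replicate number as a block were alternatives. Tests were checked on simulated data. Named genes were the markers, the 30 leading genes of at least 50 CPM, the most abundant members of lists, up to 5 genes each way of lowest unadjusted p, and Piezo1, Apoe and Lars2. Other genes named from lists were chosen after their values were seen.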

Additional observations from a re-analysis of the deposited data

How the results depend on the processing

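The count of 0 genes between groups (edgeR, adjusted p under 0.05; 237 at an unadjusted p under 0.05) became 95 of 26170 genes without the filter on low counts, and ranged from 0 to 3 when each library was left out, with 3 without control 1; the cause was not tested. Same-numbered deviations correlated at 0.156, -0.0196 and -0.0138 for replicates 1 to 3, and those of control 2 and knockout 3 at 0.2105. Replicate numbers were thus not taken as pairs, though both replicates 1 shared a Cell Ranger version and the greatest depth of members. With the replicate block the count was 0 (239 at an unadjusted p under 0.05), and the log2 fold change of Piezo1 was -0.167. The difference in share of tendon-like cells ranged from -7.52 to 3.64 percentage points with a library left out and turned positive without control 1 (0.564), control 2 (0.289) or knockout 2 (3.64). The difference in cycling cells ranged from -1.11 to 5.18 with a library left out, was 7.65 without thinning and 8.15 without both replicates 3, and turned negative without control 1 (-0.414), control 2 (-0.583) or knockout 2 (-1.11), and at -0.350 with members limited to at least 0.05% of UMIs from the rule genes, a limit chosen after seeing the data. Piezo1 ranged from -0.553 to 0.114 over its alternatives and turned positive without knockout 2 (0.114), knockout 3 (0.113) or both replicates 3 (0.098). Lars2 ranged from -1.17 to 0.154 and turned positive without control 1 (0.121), knockout 2 (0.00508) or knockout 3 (0.154), and Tnmd, from -1.24 to 0.195 with a library left out and -1.54 without both replicates 3, did so without control 2 (0.195) or knockout 2 (0.102). Of the alternatives for named genes other than Piezo1, 258 kept direction and side of the threshold, 7 passed it and 5 turned in sign. The 7 passed without the filter on low counts, Kera (-1.59), which the rule used, among them. The 38 cells of knockout 2 limit what its sums can show.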

Other observations

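Fibroblast and periosteal genes of the tendon-like cells are given as log2 ratios of CPM + 10 to other stromal cells of the same library. Cells gated on Penk and Aspn or on Pi16 and Clec3b were not taken out of the other stromal cells, so these ratios are to a group that holds such cells. Over all genes tested, 8.60% were higher and 10.1% lower in all 6 libraries. Of 10 periosteal-like stromal genes, 6 were higher and 0 lower in all 6 libraries, with a median ratio of 0.78, among them the heparin-binding growth factor Ptn (1.23) and the protease Ctsk (0.73). The summed periosteal-like list averaged 7764 CPM in members, 7081 CPM in the Penk and Aspn stroma, 7519 CPM in mural cells and 4745 CPM in other stromal cells. Of 12 genes of progenitor-like fibroblasts, 4 were higher and 0 lower, with a median of 0.52, among them Igfbp6, the dermatopontin gene Dpt (0.87), Clec3b (0.82) and the semaphorin Sema3c (1.15). Genes of the tendon sheath and of synovial lining were near the level of other stroma, with 1 of 9 higher and a median of 0.14. Lubricin (Prg4) averaged 235 CPM in tendon-like cells and 232 CPM in other stromal cells, but after thinning to 3000 UMIs it was detected in a median of 19.3% and 4.48% of cells over libraries, with ranges of 13.2 to 28.9% and 1.85 to 24.0%, and in 1.88% of endothelial cells. The sheath marker Tppp3 averaged 96.2 and 95.5 CPM.

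Median ratios of housekeeping programmes were smaller in size than those of the periosteal-like and progenitor-like lists. Of 24 collagen-processing genes, 5 were higher and 4 lower in all 6 libraries, with a median of 0.02, and the cross-linking enzyme Loxl1 (0.60) was among the higher. Of 18 genes of protein secretion and its stress response, 3 were higher and 2 lower, with the transcription factors Creb3l1 (-0.52) and Atf4 (-0.17) the lower pair. Of 17 genes of glycolysis and hypoxia, 0 were higher and 4 lower, with a median of -0.20. Of 17 immediate early and dissociation genes, 1 (Jund) was higher and 4 lower, with Hspa1a at -0.47 and Atf3 at -0.69. Of 20 genes of the G2 and M phases, 0 were higher and 0 lower in all 6 libraries.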
